A study of Mus musculus with 3 samples.

Results

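The 10 genes described here encode receptors and ligands that steer growing axons: the Slit receptors *Robo1* and *Robo2*, the netrin receptor *Dcc*, the semaphorin receptor subunits *Nrp1*, *Plxna2* and *Plxna4*, the Eph receptors *Epha4* and *Epha5*, and the ephrins *Efnb2* and *Efnb3*. They were chosen by symbol, and all 10 had a row among the 14933 genes of the filtered raw-count table. Cells of the medial prefrontal cortex (mPFC) of C57Bl6 mice were dissociated at P5, sorted by FACS for tdTomato and captured with the 10X Chromium 3′ kit, which counts unique molecular identifiers (UMIs) at the 3′ ends of transcripts. Wild-type mice carried *Rbp4-cre* and the Cre-dependent tdTomato reporter, *Tbr1* layer 5 heterozygous mice carried in addition a single floxed *Tbr1* allele (Tbr1f/+), and *Tbr1* layer 5 homozygous mice a floxed allele on both chromosomes (Tbr1f/f). *Rbp4-cre* is a transgene driven in layer 5 pyramidal neurons, so the deletion was limited to cells with Cre, and *Tbr1* encodes a T-box transcription factor of deep-layer cortical neurons. There was 1 library per genotype, and the number of animals behind each is not given in the sources used here.

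Axon guidance works through receptors on the growth cone that read secreted or membrane-bound ligands. Slits repel axons through Robo receptors, netrin attracts through DCC, class 3 semaphorins act through a neuropilin that binds the ligand and a plexin that signals, and Eph receptors and ephrins, both anchored in membranes, signal at cell contacts in both directions. Many of these genes also serve outside axons, as *Nrp1* does in blood vessels, where it is a co-receptor for vascular endothelial growth factor.

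Filtered cells of each library were compared in 3 classes. Typical neuronal cells are those that the study kept for its test of expression, atypical neuronal cells are those that it set apart, and the other cells are those that passed the filters but were not in its neuronal list. The wild-type, heterozygous and homozygous libraries held 1778, 5357 and 3935 typical cells, 304, 107 and 462 atypical cells, and 2873, 1398 and 1182 other cells. The UMIs of a gene were added up over the cells of a class in each library and scaled to 1000000 UMIs of that class, as CPM. The typical cells summed to 3670646, 10418228 and 6074494 UMIs in the order wild-type, heterozygous, homozygous, which is used for every series of values below, with medians of 1901, 1743 and 1375 UMIs per cell. Intervals are exact 95% intervals (Poisson for a level, conditional binomial for a ratio) and cover counting error only. With 1 library per genotype there is no replicate error, no test between genotypes was run, and a difference between libraries cannot be told apart from a difference between genotypes.

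All 8 markers of excitatory neurons were detected in the typical cells of each library, and their summed level was 2092, 2551 and 3201 CPM. *Tbr1* itself stood at 27.5, 30.7 and 22.4 CPM in typical cells, and the homozygous over wild-type log2 ratio was −0.30 (−0.68 to 0.09). Counts at the 3′ end do not cover the floxed exons, so this level does not check the deletion. Of 4955, 6862 and 5579 filtered cells, 47 barcodes were shared by the wild-type and heterozygous libraries, 37 by the wild-type and homozygous libraries and 58 by both mutant libraries. Barcodes with 100 to 499 UMIs outside the filtered cells, called empty droplets here, numbered 44157, 40520 and 55787, and were taken as a measure of free RNA. Damaged or low-RNA cells among them were not excluded, and the excitatory markers summed to 1115, 1655 and 1872 CPM in them.

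The promoters of *Epha5* and *Nrp1* are shown because these were the members whose homozygous over wild-type interval excluded 0 in typical cells. Each sequence covers the 250 bases before the annotated start (RefSeq, GRCm38.p6), *Epha5* at chr5:84417383-84417632 on the minus strand and *Nrp1* at chr8:128358823-128359072 on the plus strand. In GENCODE M21 the *Nrp1* stretch lies in an intron of a short transcript that starts farther upstream, at 128358604. Capitals mark the T-box core GTGTGA or its reverse complement TCACAC.
Epha5: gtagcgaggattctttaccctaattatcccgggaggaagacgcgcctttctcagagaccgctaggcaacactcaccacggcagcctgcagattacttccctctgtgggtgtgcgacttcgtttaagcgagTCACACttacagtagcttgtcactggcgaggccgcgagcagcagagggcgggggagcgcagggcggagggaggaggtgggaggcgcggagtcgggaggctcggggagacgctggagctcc
Nrp1: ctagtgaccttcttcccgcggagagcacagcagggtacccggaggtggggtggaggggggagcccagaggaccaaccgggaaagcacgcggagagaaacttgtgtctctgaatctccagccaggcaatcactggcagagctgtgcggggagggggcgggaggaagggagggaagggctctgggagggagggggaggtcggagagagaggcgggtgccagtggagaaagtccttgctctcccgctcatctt
The full T-box element AGGTGTGA was searched on both strands of 300-base windows (250 bases before a start and 50 after) and was in 1.28% of 32851 mouse windows. None of the 9 windows of the 7 members with an entry held it. The shorter core, which lies within the full element, was in 14.5% of all windows and in 2 member windows, of *Epha5* and *Robo2*. These matches describe letters only, and no binding was measured.

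In typical neuronal cells most members were near their level in the empty droplets. *Epha5*, a receptor for A-type ephrins, reached 71.4, 55.5 and 54.0 CPM, and *Efnb3*, a transmembrane B-type ephrin, 36.8, 33.7 and 31.8 CPM. *Epha4*, a receptor that binds both ephrin classes, stood at 18.3, 20.7 and 18.9 CPM, and the remaining members were at 12.7 CPM or less in each library. *Dcc* had 1, 2 and 1 UMIs, too few to read a genotype ratio. These are UMI counts of transcript ends, which do not scale with transcript length.

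Set against the empty droplets of the same library, *Plxna4* was higher in typical cells by a log2 ratio of 0.80 (0.22 to 1.34), 0.71 (0.16 to 1.28) and 0.91 (0.38 to 1.45). *Epha4* was higher by 0.46, 0.51 and 0.61, with all 3 intervals above 0. *Epha5* was higher in the wild-type (0.37, 0.16 to 0.57) and heterozygous (0.19, 0.01 to 0.38) libraries, and its homozygous interval spanned −0.20 to 0.19. *Robo1* had an interval above 0 only in the heterozygous library (0.50, 0.03 to 0.97) and *Robo2* only in the homozygous library (0.55, 0.10 to 1.0). *Nrp1* was below the empty droplets in the homozygous library, at −0.94 (−1.70 to −0.25). For *Dcc*, *Plxna2* and *Efnb2*, every interval held 0, so a level above the empty droplets was not detectable at this depth. *Efnb3* gave −0.13 (−0.41 to 0.14), −0.04 (−0.27 to 0.18) and −0.19 (−0.44 to 0.05), intervals that leave room only for a small excess over the droplets. Of the 9 members at a mean of 5 CPM or more over cells and droplets, the interval lay above 0 in typical cells for 3, 4 and 3, beside 21.1%, 16.3% and 19.4% of all genes at that level. In the other cells it did so for 8 of 9 in each library, beside 74.6%, 46.1% and 58% of all genes.

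**Figure D1:**
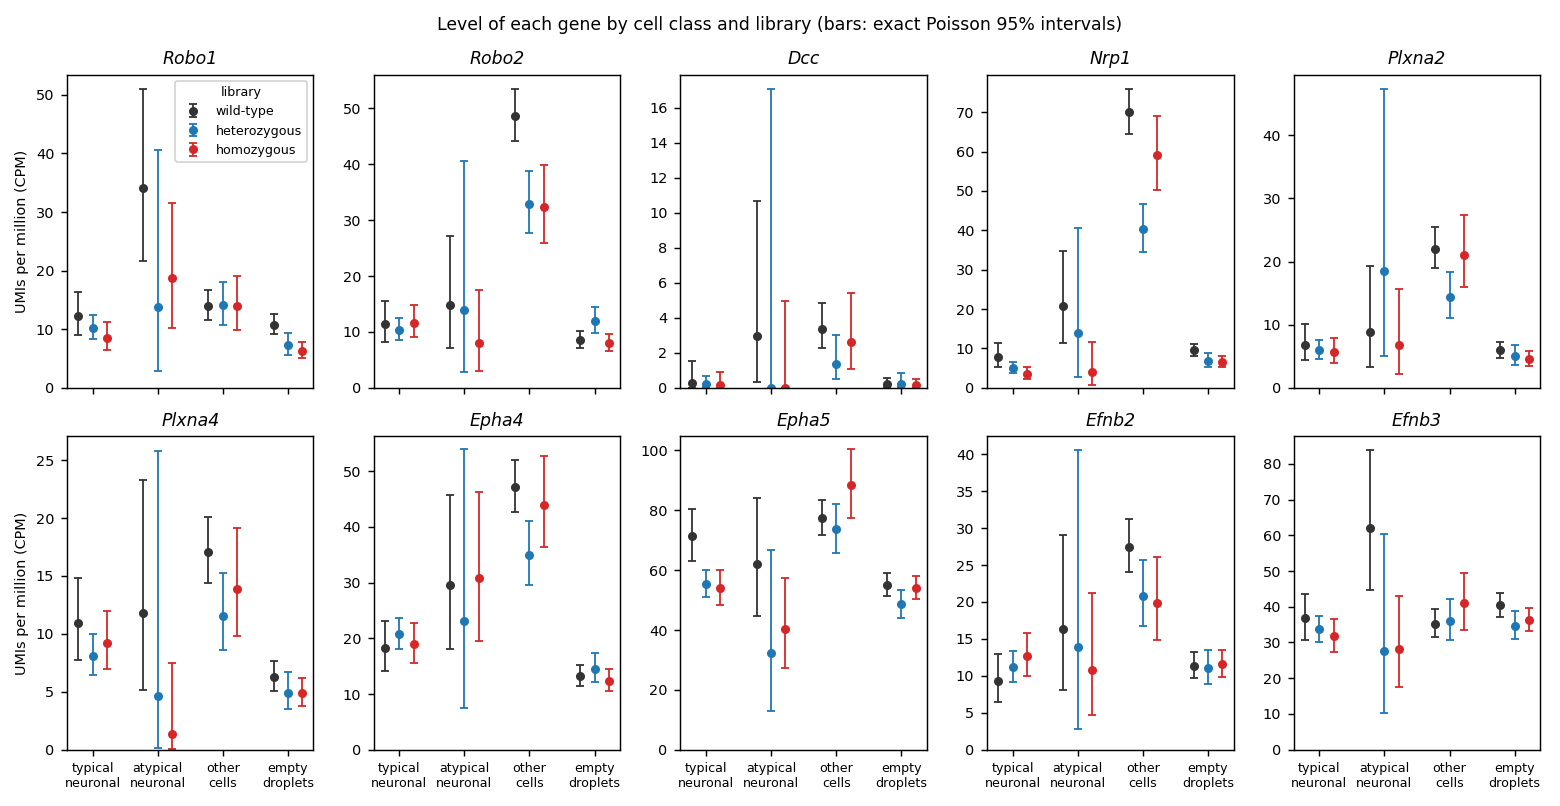
Level of each member in CPM (y axis, linear, from 0) in typical neuronal, atypical neuronal and other cells and in empty droplets, with 1 point per library and exact Poisson 95% intervals as bars. *Nrp1* and *Robo2* stand out in the other cells (40.3 to 70.0 and 32.3 to 48.6 CPM). *Efnb3* is near the empty droplets in typical and other cells, although in the homozygous library other cells lie above typical cells beyond counting error.

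The main question of the design, whether these genes differ with *Tbr1* dose in layer 5 neurons, was addressed by the ratios of the mutant libraries to the wild-type library in typical cells. *Epha5* was lower beyond its counting interval in both mutant libraries and *Nrp1* only in the homozygous library, and no member was higher beyond its interval. The ratios of *Robo1*, *Plxna2*, *Plxna4* and *Efnb3* were also below 0 in both comparisons, with intervals that held 0. Both comparisons use the same wild-type library, and the share of all genes below 0 in both was not taken. With cells thinned to 1000 UMIs, *Efnb3* was above 0 in both (0.19 and 0.13) and *Robo1* in the heterozygous comparison (0.09). *Plxna2* and *Plxna4* stayed below 0 in both. Of the 9 members with a mean of 5 CPM or more, the interval lay below 0 for 1 in the heterozygous and 2 in the homozygous comparison, beside 13.3% and 10.4% of all genes at that level, and above 0 for none, beside 16.8% and 16.4%. *Epha5* counted 262, 578 and 328 UMIs, and its log2 ratio was −0.36 (−0.58 to −0.15) for heterozygous over wild-type and −0.40 (−0.64 to −0.16) for homozygous over wild-type. Both mutant libraries were below the wild-type library, and they did not differ from each other beyond counting error (−0.04, −0.24 to 0.16). The levels were 71.4 (63.0 to 80.6), 55.5 (51.0 to 60.2) and 54.0 (48.3 to 60.2) CPM. Beside this, the excitatory markers were lowest in the wild-type library (above), 11 inhibitory markers summed to 619, 550 and 673 CPM, and the empty droplets held *Epha5* at 55.2, 48.6 and 54.1 CPM. The 10 markers of astrocytes and radial glia summed to 8635, 7607 and 8548 CPM, the 9 of the oligodendrocyte lineage to 374, 348 and 302 CPM and the 7 of cycling cells to 81.7, 48.6 and 76.4 CPM. These lists were highest in the wild-type library, as *Epha5* was, and astrocyte-like cells and a cluster led by *Pdgfra* held *Epha5* above typical cells (below). The median share of mitochondrial UMIs in typical cells was 10.4%, 15.4% and 12.5%, and that of ribosomal protein genes 20.6%, 15.2% and 16.4%, so the wild-type library was lowest in the former and highest in the latter. The part of these values in the *Epha5* and *Nrp1* ratios was not tested, apart from a total without mitochondrial and ribosomal protein genes, which gave −0.45 for *Epha5* and −1.24 for *Nrp1* (homozygous over wild-type). *Nrp1* counted 29, 53 and 21 UMIs (7.90, 5.09 and 3.46 CPM), a log2 ratio of −0.64 (−1.31 to 0.07) for heterozygous and −1.19 (−2.08 to −0.33) for homozygous over wild-type. Its 3 libraries stood in the order of *Tbr1* dose, but only the homozygous over wild-type interval excluded 0. The homozygous over heterozygous interval held 0, and the empty droplets stood in the same order of libraries (below).

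Markers of other cell types in typical cells are given beside the *Nrp1* result. The summed level of 8 endothelial markers in typical cells was 114, 33.9 and 56.8 CPM, with all 8 markers at 3 or more UMIs in each library, that of 9 microglia markers was 45.5, 30.1 and 31.8 CPM, and that of 8 mural markers was 40.9, 17.8 and 21.2 CPM. Markers of meningeal fibroblasts summed to 304, 31.4 and 44.1 CPM and those of blood to 345, 44.6 and 85.8 CPM. All were highest in the wild-type library, as *Nrp1* was. All were higher in the homozygous than in the heterozygous library. *Nrp1* was lower in the homozygous than in the heterozygous library, but the interval of that ratio held 0. In the empty droplets *Nrp1* was at 9.55, 6.93 and 6.65 CPM, also highest in the wild-type library. With the empty-droplet profile subtracted at the largest share that the marker lists allow (25.2%, 8.15% and 17.8% of UMIs), the homozygous over wild-type ratio of *Nrp1* was −1.41. The part of RNA from these cell types in the ratio was not tested.

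The other members had intervals that held 0 in both comparisons. *Robo1* (45, 107 and 52 UMIs) was at 12.3, 10.3 and 8.56 CPM, a homozygous over wild-type log2 ratio of −0.52 (−1.12 to 0.09). *Efnb2* (34, 116 and 77 UMIs), a ligand of EphB receptors and EphA4, was at 9.26, 11.1 and 12.7 CPM, with a ratio of 0.45 (−0.15 to 1.08). *Efnb3* gave −0.21 (−0.54 to 0.12), a ratio that turned to 0.13 when each cell was thinned to 1000 UMIs. *Plxna4* gave −0.43 (−0.99 to 0.15) for heterozygous over wild-type and −0.24 (−0.85 to 0.38) for homozygous over wild-type. *Robo2*, *Plxna2* and *Epha4* lay between −0.28 and 0.05 in the homozygous comparison. With each cell thinned to 1000 UMIs, *Epha4* went from 0.05 to 0.51 for homozygous and from 0.18 to 0.57 for heterozygous over wild-type, past the fold as higher in both, and *Plxna2* went from −0.28 to −0.60 for homozygous over wild-type. Thinning left *Epha4* in 25, 111 and 74 typical cells, and no interval was taken for thinned ratios. The width of the counting intervals above does not show that these genes are alike in the 3 libraries.

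Of the 9 members with a mean of at least 5 CPM, 2 were past a log2 ratio of 0.5 in size in the homozygous library, *Robo1* and *Nrp1*, both lower. In that comparison 7.42% of all genes at this level were past the fold as lower and 8.46% as higher. In the heterozygous library 1 member, *Nrp1*, was past the fold as lower, against 8.16% of all genes lower and 8.35% higher. With every cell weighted equally, *Nrp1* gave −0.45 there and was not past the fold, and with cells thinned to 1000 UMIs *Robo1* gave −0.35 for homozygous over wild-type. The 2 members with a mean of at least 20 CPM, *Epha5* and *Efnb3*, were not past the fold in either comparison, where the share of all genes was 3.28% lower and 5.32% higher for homozygous, and 3.97% lower and 6.36% higher for heterozygous. Over the 9 members the median log2 ratio was −0.24 for homozygous over wild-type, beside 0.05 over all genes at this level, and −0.19 for heterozygous over wild-type, beside 0.03. Both medians use the same wild-type library. With cells thinned to 1000 UMIs, *Robo1*, *Robo2*, *Efnb2*, *Efnb3* and *Epha4* were above 0 for heterozygous over wild-type, at 0.09, 0.02, 0.10, 0.19 and 0.57. *Nrp1*, *Plxna2*, *Plxna4* and *Epha5* stayed below 0 there. No thinned median was taken, and the medians are not read as a shift of these genes. Between both mutant libraries none of the 8 members with a mean of at least 5 CPM was past the fold, against 2.24% of all genes lower and 3.16% higher.

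**Figure D2:**
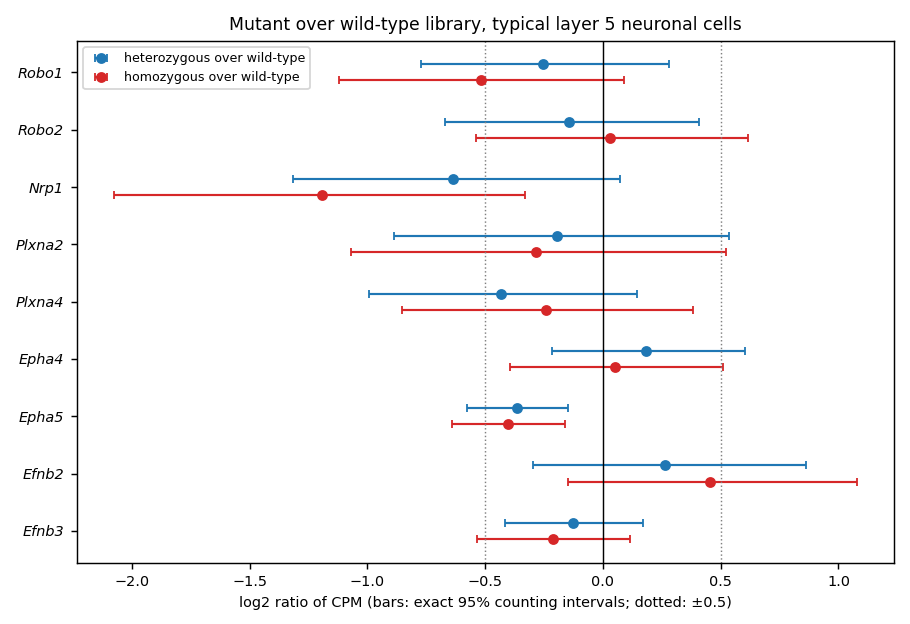
Log2 ratio of CPM of each mutant library to the wild-type library in typical cells (x axis), for the 9 members other than *Dcc*, with exact 95% counting intervals as bars and dotted lines at a log2 ratio of 0.5 in size. *Epha5* lies below 0 with its interval in both comparisons and *Nrp1* in the homozygous comparison.

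Intervals of the other over typical ratio lay above 0 for 6, 6 and 8 of the 9 members with a mean of 5 CPM or more, beside 63.6%, 48.8% and 53.2% of all genes at that level. *Nrp1*, *Robo2*, *Plxna2*, *Epha4*, *Efnb2* and *Dcc* were above the typical cells with intervals above 0 in all 3 libraries. The log2 ratio of *Nrp1* was 3.15 (2.61 to 3.74), 2.99 (2.53 to 3.46) and 4.09 (3.43 to 4.82), and that of *Robo2* was 2.09, 1.67 and 1.47. *Plxna2* gave 1.70, 1.27 and 1.91, *Epha4* 1.37, 0.75 and 1.22, and *Efnb2* 1.57, 0.90 and 0.65. *Dcc* counted 29, 6 and 7 UMIs in the other cells against 1, 2 and 1 in typical cells, with ratios of 3.63 (1.03 to 8.98), 2.86 (0.37 to 6.2) and 4.0 (1.04 to 9.49). *Efnb3* showed the least difference, with ratios of −0.06, 0.10 and 0.37, of which only the last had an interval above 0.

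Past the fold as higher were 6, 6 and 8 of the 9 members, and none as lower. A difference of this size was common among all genes, at 59.1%, 41.1% and 51.6% of those with a mean of at least 5 CPM, while 10.1%, 2.31% and 7.61% were lower. Since the study divided the cells by their expression, these genes could enter the division, and the ratios are given as a description. In a mixed class, fewer cells of a type and less RNA per cell cannot be told apart.

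To see which cells carried each gene, the 5453 other cells were clustered without the 10 members and without a list of other guidance genes, which gave 22 clusters. By marker lists, 15 clusters were named as 12 classes and 7 were left unnamed, and "-like" marks a name that rests on markers alone. The makeup of the other cells differed between libraries: inhibitory neuron-like cells made up 24.8%, 12.7% and 17.1%, cycling-like cells 10.1%, 1.93% and 2.28%, excitatory neuron-like cells 1.5%, 19.2% and 2.79%, and unnamed clusters 17.3%, 39.7% and 36.8%. The lowest UMI count of any of these cells was 1533, 1188 and 1039, so the mutant libraries kept cells of lower count. The part of this in the makeup was not tested. Levels below are pooled over libraries unless 3 values are given, and the pooled order of classes follows mostly the wild-type library. The order leaves out ependymal-like cells, of which there were 13.

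**Figure D3:**
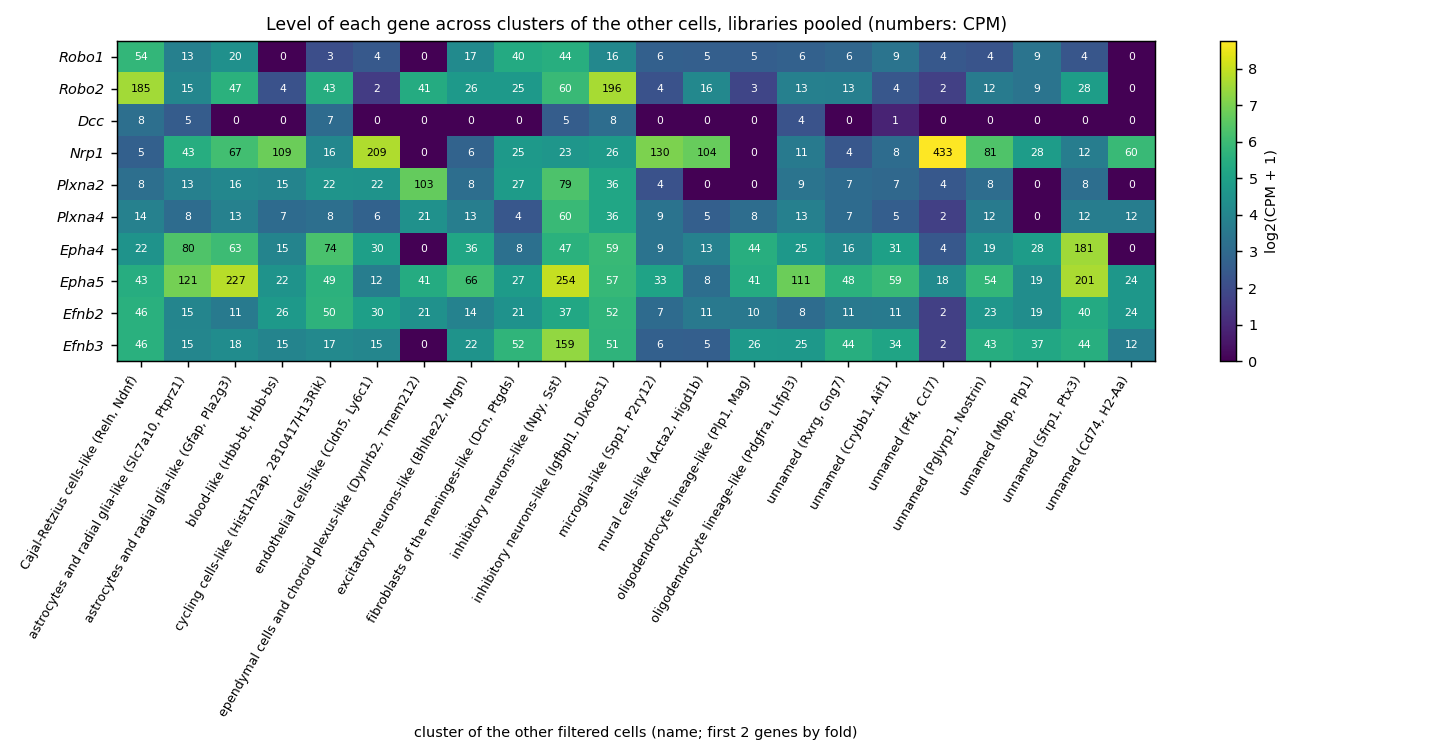
Level of each member (rows) in the 22 clusters of the other cells (columns, with the name and the first genes by fold), libraries pooled. Color gives log2(CPM + 1) and the numbers are CPM, so a reader can see *Nrp1* at 433 in the *Pf4* cluster and 209 in endothelial-like cells, *Robo2* at 196 in the inhibitory cluster led by *Igfbpl1*, and *Epha5* at 254 in the inhibitory cluster led by *Npy* and *Sst*.

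*Robo2* (GRCm38 chromosome 16, 73891839 to 74411825, minus strand) was highest, among whole classes pooled over libraries, in Cajal-Retzius-like cells, the reelin-secreting neurons of the marginal zone, at 185 CPM (143 to 234), followed by inhibitory neuron-like cells at 136 CPM (123 to 151), a log2 ratio of 0.44 (0.04 to 0.81). By library the former held 184, 215 and 88.0 CPM, the last from 2 UMIs in 6 cells, and the latter 150.0, 112 and 118 CPM, so the order was the reverse in the homozygous library. The 2 inhibitory clusters differed. In the cluster led by *Igfbpl1*, *Dlx6os1*, *Sp8*, *Htr3a* and *Meis2*, called the *Sp8* cluster here, *Robo2* was at 183, 279 and 220 CPM, whereas the cluster led by *Npy* and *Sst*, called the *Sst* cluster, held 52.0, 49.5 and 80.7 CPM. The lowest library of the former was above the highest of the latter. Endothelial-like cells had 3 UMIs of *Robo2* in 446 cells, or 1.93 CPM.

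*Robo1* (chromosome 16, 72308306 to 73046095, plus strand), a gene that shares chromosome and ligands with *Robo2*, showed another pattern. It was at 54.3 CPM (33.2 to 83.8) in Cajal-Retzius-like cells, 39.8 CPM in meningeal fibroblast-like cells and 28.3 CPM in inhibitory neuron-like cells, neighbors in the order that did not differ beyond their intervals. In the *Sst* cluster it stood at 47.2, 52.0 and 31.2 CPM, above typical cells by log2 ratios of 1.95 (1.11 to 2.74), 2.34 (1.59 to 3.02) and 1.87 (0.83 to 2.79). In the *Sp8* cluster it was at 16.1 CPM (10.4 to 23.8). The order of both clusters was the reverse of that for *Robo2*.

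*Dcc* (chromosome 18, minus strand) gave 42 UMIs in all other cells. Of these 18 were in inhibitory neuron-like cells (6.52 CPM, 3.86 to 10.3), 9 in cycling-like cells, 9 in astrocyte-like cells and 3 in Cajal-Retzius-like cells. The 345 excitatory neuron-like cells held none.

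*Nrp1* (chromosome 8, 128358604 to 128503363, plus strand) was highest in vascular and myeloid cells. Endothelial-like cells held 211, 206 and 208 CPM. The mutant over wild-type log2 ratio in these cells was −0.04 (−0.53 to 0.43) for heterozygous and −0.02 (−0.42 to 0.37) for homozygous. Microglia-like cells held 143, 103 and 146 CPM and mural-like cells 114, 69.3 and 104 CPM. The highest level was in an unnamed cluster of 117 cells led by *Pf4*, *Ccl7*, *Lyve1* and *Mrc1*, at 408, 594 and 374 CPM. Blood-like cells were at 109 CPM, a level that did not differ from the mural-like cells beyond counting error. In excitatory neuron-like cells *Nrp1* was at 5.95 CPM (2.72 to 11.3), within the range of the typical cells.

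*Plxna2* (chromosome 1, 194618218 to 194816869, plus strand) and *Plxna4* (chromosome 6, 32144268 to 32588192, minus strand), the plexins that pair with neuropilins or bind class 6 semaphorins, were both highest among the ordered classes in inhibitory neuron-like cells, at 54.7 CPM (46.3 to 64.2) and 46.4 CPM (38.7 to 55.1). *Plxna4* exceeded the next class by a log2 ratio of 1.77 (0.51 to 3.42) and *Plxna2* by 1.01 (0.19 to 1.95). In the *Sst* cluster *Plxna2* was at 92.1, 61.9 and 83.3 CPM and *Plxna4* at 56.7, 57.0 and 67.7 CPM. *Nrp1* was low in the same cluster, at 23.1 CPM. *Plxna4os1* is annotated inside *Plxna4* on the opposite strand and was counted apart, and the 10X 3′ protocol keeps the strand of the transcript.

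*Epha4* (chromosome 1, 77367185 to 77515088, minus strand) was highest in astrocyte-like cells, at 76.5 CPM (65.5 to 88.7), and in cycling-like cells, at 74.5 CPM (59.9 to 91.5), which did not differ beyond counting error. Both pooled levels were above inhibitory neuron-like cells at 54.0 CPM, but in the homozygous library inhibitory neuron-like cells held 72.3 CPM and astrocyte-like cells 70.1 CPM. A cluster of 102 cells led by *Sfrp1* and *Ptx3*, of which 82 came from the wild-type library, held 181 CPM (132 to 242). In excitatory neuron-like cells *Epha4* was at 35.7 CPM (26.8 to 46.6), and 269 of these 345 cells came from the heterozygous library. There it held 36.2 CPM (26.4 to 48.5), above typical cells at 20.7 CPM. The wild-type and homozygous intervals, from 5 and 4 UMIs, held the level of typical cells.

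*Epha5* (chromosome 5, 84054761 to 84417382, minus strand) was highest in inhibitory neuron-like and astrocyte-like cells, at 144 and 142 CPM, a difference of 0.02 on the log2 scale (−0.19 to 0.24). At clustering resolution 2 the inhibitory value was 94.8 CPM. The *Sst* cluster carried the inhibitory level, with 291, 211 and 260 CPM, while the *Sp8* cluster was at 57.5 CPM (46.1 to 70.7), the level of typical cells. Astrocyte-like cells were also split: the *Gfap* cluster held 194, 278 and 333 CPM and the *Slc7a10* cluster 120, 104 and 139 CPM. The *Sfrp1* cluster was at 201 CPM, so *Epha4* and *Epha5* were both high there. Oligodendrocyte precursor genes such as *Pdgfra* led a further cluster, where *Epha5* was at 111 CPM (84.7 to 143).

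The ephrins divided by cell type as well. *Efnb2* (chromosome 8, 8617434 to 8661242, minus strand) was at 49.6 CPM in cycling-like cells, 46.1 CPM in Cajal-Retzius-like cells and 45.3 CPM in inhibitory neuron-like cells, which did not differ beyond counting error. It was at 30.2 CPM (22.2 to 40.1) in endothelial-like cells, where it is known as an arterial marker. *Efnb3* (chromosome 11, 69554092 to 69560205, minus strand) was highest, pooled over libraries, in inhibitory neuron-like cells, at 98.5 CPM (87.2 to 111). In the homozygous library meningeal fibroblast-like cells held 134 CPM, from 11 UMIs, against 116 CPM in inhibitory neuron-like cells. The *Sst* cluster held *Efnb3* at 165, 168 and 143 CPM, above typical cells by log2 ratios of 2.17 (1.73 to 2.60), 2.32 (1.92 to 2.70) and 2.17 (1.71 to 2.61). In the *Sp8* cluster *Efnb3* was at 51.0 CPM and *Efnb2* at 51.7 CPM. *Efnb3* in the other cells as a whole did not stand above the empty droplets beyond counting error. The *Sst* cluster, with 334 cells, did stand above the 34.8 to 40.4 CPM of the droplets.

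**Figure D4:**
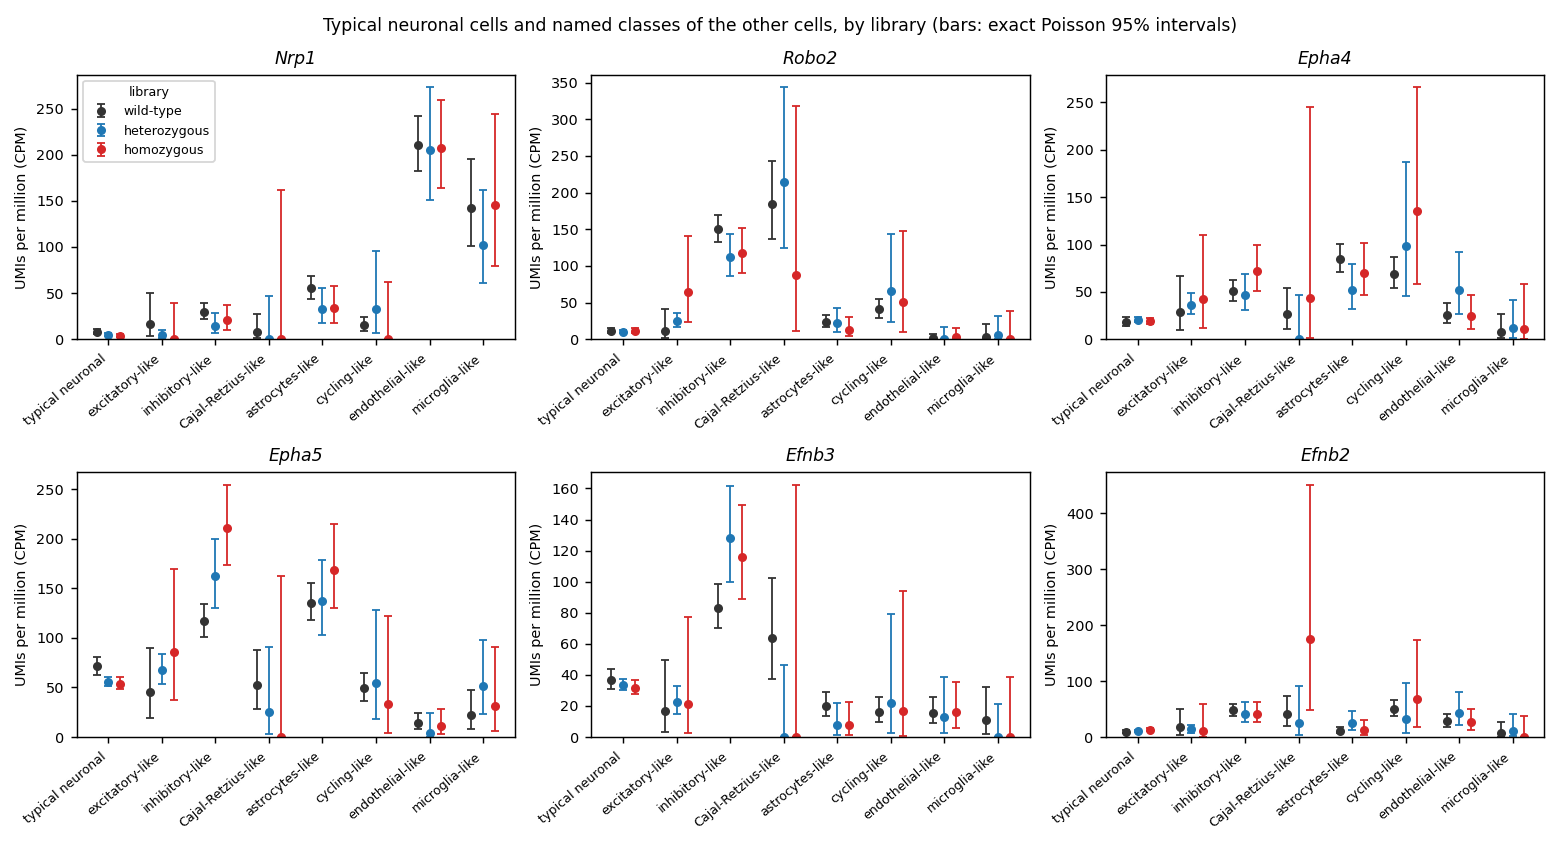
Level in CPM (y axis, linear, from 0) of *Nrp1*, *Robo2*, *Epha4*, *Epha5*, *Efnb3* and *Efnb2* in typical neuronal cells and in named classes of the other cells, 1 point per library with exact Poisson 95% intervals. The 3 libraries agree within their intervals for *Nrp1* in endothelial-like cells (206 to 211 CPM), while *Epha5* in inhibitory neuron-like cells runs from 117 CPM in the wild-type to 211 CPM in the homozygous library. That class pools clusters of unlike *Epha5* level, whose shares differ between libraries.

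Genotype ratios were also read within the classes and within their clusters. *Epha5* in inhibitory neuron-like cells was at 117, 162 and 211 CPM, with a homozygous over wild-type log2 ratio of 0.86 (0.51 to 1.2), and *Efnb3* was at 83.3, 128 and 116 CPM, with a ratio of 0.48 (0.02 to 0.92). For heterozygous over wild-type *Epha5* gave 0.48 (0.10 to 0.84), *Efnb3* 0.62 (0.19 to 1.04) and *Robo2* −0.42 (−0.85 to −0.02) in the same class. *Epha4* in astrocyte-like cells gave −0.69 (−1.44 to −0.02), from 52.3 CPM in the heterozygous and 84.6 CPM in the wild-type library. The *Sst* cluster made up 125 of 713, 99 of 178 and 110 of 202 inhibitory neuron-like cells. Within that cluster *Epha5* gave −0.16 (−0.55 to 0.23) for homozygous and −0.46 (−0.88 to −0.05) for heterozygous over wild-type, and *Efnb3* gave −0.21 (−0.74 to 0.32) and 0.03 (−0.48 to 0.53). In the *Sp8* cluster *Epha5* was at 58.1, 33.2 and 77.9 CPM, from 73, 5 and 11 UMIs, so the homozygous library was the highest there, with overlapping intervals, as it was in the pooled class but not in the *Sst* cluster. In the other cells as a whole, *Robo2* was below the wild-type library in each mutant library, with log2 ratios of −0.56 (−0.85 to −0.29) for heterozygous and −0.59 (−0.94 to −0.25) for homozygous. Within the *Sp8* cluster the ratio was 0.61 (0.10 to 1.09) for heterozygous and 0.26 (−0.33 to 0.81) for homozygous, of which only the former excluded 0. The shares of *Sp8* cluster cells were 588 of 2873, 79 of 1398 and 92 of 1182.

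In the other cells as a whole, 1 of 9 members was past the fold as lower in the homozygous library, *Robo2*, against 16.3% of all genes, and 4 (*Robo2*, *Nrp1*, *Plxna2* and *Plxna4*) in the heterozygous library, against 32.9%. None was higher, where all genes gave 9.1% and 9.66%. The median share of mitochondrial UMIs in the other cells was 4.45%, 13.0% and 7.95%, and its part in these ratios was not tested.

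Atypical neuronal cells were few, and all members but *Epha5* and *Efnb3* had at most 23 UMIs in each library. Their summed level of 7 striatal markers was 363, 486 and 548 CPM, against 42.5, 38.4 and 60.3 CPM in typical cells, and that of the 8 excitatory markers was 604, 2451 and 1204 CPM, with 0, 2 and 1 of them at 0 UMIs. *Robo1* was at 34.0, 13.9 and 18.8 CPM, above typical cells of the wild-type library by a log2 ratio of 1.47 (0.68 to 2.23) and of the homozygous library by 1.13 (0.17 to 2.01). *Efnb3* and *Nrp1* were above typical cells in the wild-type library, by 0.76 (0.22 to 1.27) and 1.39 (0.36 to 2.36), and not beyond counting error in either mutant library. *Plxna4* had 1 UMI in the homozygous library, below typical cells by a log2 ratio of −2.78 (−8.11 to −0.24), and 8 in the wild-type library. *Dcc* had 0 UMIs in both mutant libraries, where the exact upper limit was 17.1 CPM for heterozygous and 4.95 CPM for homozygous.

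Past the fold, 5 of 9 members were higher in atypical than typical wild-type cells, against 25.6% of all genes, and none lower, against 13.5%. In the mutant libraries, 2 of 9 were higher and 2 lower in the heterozygous library, against 24.6% and 28.6%, and 2 of 8 were higher and 2 lower in the homozygous library, against 14.9% and 20%. Between genotypes in atypical cells, 7 of 9 members were lower in the homozygous library, against 29% of all genes, and 5 of 9 in the heterozygous library, against 35.1%. As higher, there were 0 of 9 in the homozygous library, against 15.5% of all genes, and 1 of 9, *Plxna2*, in the heterozygous library, against 22%. Atypical cells summed to only 675832, 216259 and 745153 UMIs. The shares of all genes cover those with a mean of at least 5 CPM. A share for genes at the low level of most members was not taken, so these counts are not read as an excess. In the homozygous comparison the interval lay below 0 for 3 of the 9 members, beside 8.39% of all genes. The log2 ratio was −2.36 (−4.80 to −0.52) for *Nrp1*, from 3 against 14 UMIs, −1.14 (−1.97 to −0.35) for *Efnb3*, from 21 against 42 UMIs, and −3.14 (−8.61 to −0.24) for *Plxna4*, from 1 against 8 UMIs. Markers of other cell types also differed between the atypical cells of the libraries. In the order wild-type, heterozygous, homozygous, the fibroblast markers summed to 305, 32.4 and 32.2 CPM, the endothelial markers to 96.2, 13.9 and 49.7 CPM, the microglial markers to 91.7, 60.1 and 49.7 CPM, the mural markers to 45.9, 32.4 and 30.9 CPM and the blood markers to 345, 60.1 and 997 CPM. The inhibitory markers summed to 907, 495 and 723 CPM, those of the oligodendrocyte lineage to 376, 273 and 251 CPM, those of cycling cells to 112, 37.0 and 73.8 CPM and those of astrocytes and radial glia to 7592, 7227 and 7611 CPM. Of these lists, all but those of blood and of astrocytes and radial glia were highest in the wild-type library, and their part in the genotype ratios of atypical cells was not tested. Nor was that of the median share of mitochondrial UMIs, which was 10.1%, 19.5% and 13.6% in atypical cells.

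The ligands were measured beside their receptors. *Ntn1*, which encodes netrin-1, was at 0.817, 1.54 and 1.32 CPM in typical cells and at 29.6, 13.9 and 14.8 CPM in atypical cells, from 20, 3 and 11 UMIs. The log2 ratio was 5.18 (3.42 to 7.57), 3.18 (0.75 to 4.98) and 3.49 (2.04 to 5.0), so *Ntn1* stood above typical cells in every library. The striatal markers were also high in this class, and whether the same cells held both was not tested. *Slit1*, *Slit2* and *Slit3* were under 2 CPM in typical cells of each library. *Slit2* was at 15.6 CPM in inhibitory neuron-like cells and *Slit3* at 6.88 CPM. *Sema3c* was highest among the classes in inhibitory neuron-like cells at 34.1 CPM, and *Sema3a* in meningeal fibroblast-like cells at 25.1 CPM.

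*Sema6a*, a membrane ligand of class A plexins, was at 160 CPM in astrocyte-like and 141 CPM in endothelial-like cells, and *Sema6d* was at 161 CPM in mural-like and 126 CPM in astrocyte-like cells. *Nrp2*, the sister of *Nrp1*, was highest among the named classes in endothelial-like cells, at 40.4 CPM. *Neo1*, a netrin receptor related to *Dcc*, and *Ephb1* were highest in the oligodendrocyte lineage, both at 49.0 CPM. *Efnb1* was highest in cycling-like cells at 81.9 CPM.

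**Figure D5:**
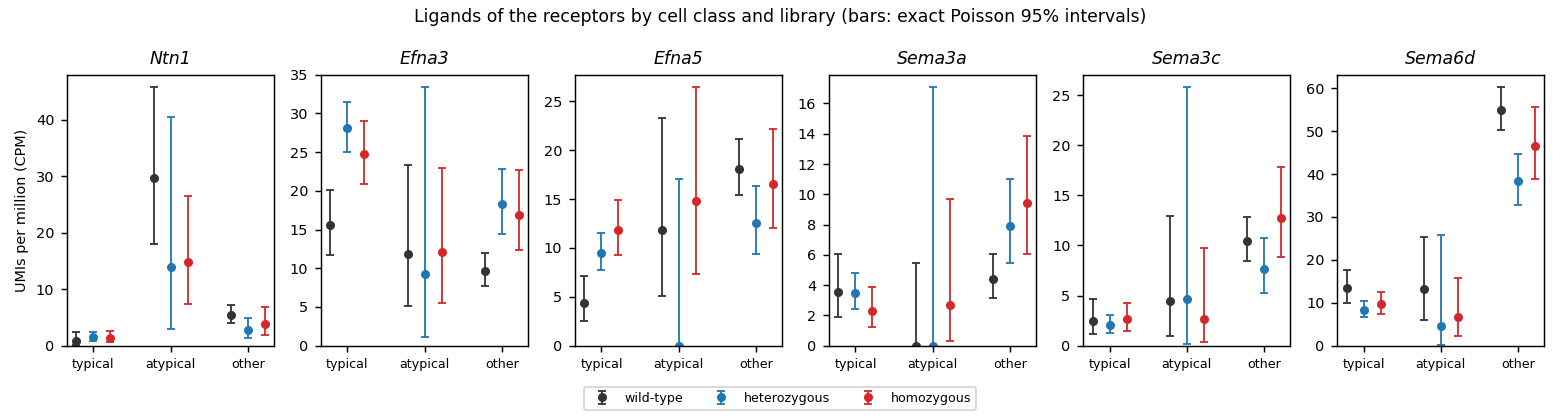
Level in CPM (y axis, linear, from 0) of *Ntn1*, *Efna3*, *Efna5*, *Sema3a*, *Sema3c* and *Sema6d* in typical, atypical and other cells, 1 point per library with exact Poisson 95% intervals, the 6 genes picked for display after their values were seen. *Ntn1* is near 0 in typical cells and at 13.9 to 29.6 CPM in atypical cells, and *Efna3* and *Efna5* are lower in typical cells of the wild-type than of either mutant library.

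A list of 71 other guidance genes, 67 of them in the table, was read in typical cells. Of the 25 with a mean of at least 5 CPM, 5 were past the fold as higher and 3 as lower in the homozygous library, where all genes at this level gave 8.46% and 7.42%, and 3 and 6 in the heterozygous library, where they gave 8.35% and 8.16%. Only 4 had a mean of at least 20 CPM, and both comparisons share the wild-type library. *Efna3*, a ligand of EphA receptors, was at 15.5, 28.1 and 24.7 CPM, log2 ratios of 0.86 (0.44 to 1.29) and 0.67 (0.22 to 1.14). In the empty droplets it was at 14.8, 25.6 and 23.7 CPM, the same order of libraries. *Chn1*, a regulator of Rac that acts downstream of EphA4, gave 0.65 and 0.67. *Ngef*, an exchange factor that binds EphA receptors, gave 0.05 and 0.06, and *Srgap3*, which binds Robo receptors, gave −0.05 and −0.16. *Efna5*, a further EphA ligand, was at 4.36, 9.50 and 11.9 CPM, which gave 1.12 (0.35 to 1.99) for heterozygous and 1.44 (0.65 to 2.32) for homozygous over wild-type on the log2 scale. It was at 4.87, 8.34 and 6.28 CPM in empty droplets. *Efna2*, the remaining A-type ephrin at this level, gave 0.29 (−0.20 to 0.80) and 0.12 (−0.42 to 0.68).

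The genes with the level pattern most like each member over the 22 clusters were named by Pearson correlation of log2 levels, as a description across clusters that share libraries. *Nrp1* was nearest to *Dusp6* (r = 0.93) and *Il10rb* (r = 0.92), *Robo2* to *Dbn1* (r = 0.84) and *Vdac1* (r = 0.82), and *Robo1* to *Syp* (r = 0.86) and *Polb* (r = 0.83). *Epha4* was near to *Lrrc4b* (r = 0.87), *Epha5* to *Gpm6a* and *Fam171b* (both r = 0.85), *Efnb3* to *Plppr2* (r = 0.89) and *Fam171a2* (r = 0.86), and *Plxna4* to *Luc7l* (r = 0.87) and *Neto2* (r = 0.83). *Plxna2* was nearest to *Ttc5* and *Klhdc3* (both r = 0.77) and *Efnb2* to *Pdlim7* (r = 0.73) and *Arfip2* (r = 0.66). *Dcc* had too few UMIs for this.

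At the level of single cells, a UMI of any of the 10 members was found in 31.6%, 25.9% and 20.4% of typical cells, in the order of their median depth. With every cell thinned to 1000 UMIs, which left out none, the shares were 16.3%, 14.9% and 14%. In the other cells the thinned shares were 29.5%, 21.5% and 24.1%, above the typical cells of each library.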

How the data were processed

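Gene expression was measured in 3 single-cell libraries (10X Chromium 3′), 1 per genotype. Per the labels, reads were processed by the authors with Cell Ranger 2.0.1 on mm10. The deposited values used here are UMI counts per gene and cell, not normalized: a filtered table of 14933 genes, whose entries did not differ from the deposited unfiltered matrices over 14903 genes, and the matrices themselves for empty droplets. Cell classes were read from the deposited neuronal metadata. The deposited neuronal tables of log-normalized and scaled values were not used.

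For each class and library, a gene's summed count was expressed per total count (CPM). Ratios between libraries or classes are log2 ratios of CPM without a pseudocount, and a log2 ratio of at least 0.5 in size is called past the fold, among genes whose mean level reached 20 CPM (main) or 5 CPM (chosen after seeing that most members were lower). Counts between single libraries allow no test. Other cells were clustered with scanpy 1.11.5 (2000 variable genes, 30 principal components, Leiden resolution 1, leidenalg 0.10.2), and clusters were named by marker lists. No doublet caller was run, and leaving out the top 5% of cells by UMI count was tried instead. Scaling factors came from edgeR 4.0.16 and DESeq2 1.42.0, used only as alternatives to the total. The ratio and interval code was tested on simulated data. The GENCODE M21 annotation gave positions, and the RefSeq tables gave promoters.

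The text names all 10 members, partners of a fixed list, and of the other guidance genes that reached 20 CPM the 3 with the largest difference in each direction that had the same sign in both mutant libraries, which only 4 genes could meet. *Efna5* is named in typical cells after its values were seen. The members and lists were chosen with earlier results of these data known. A gene among those with the most similar pattern across clusters is not reported here.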

Additional observations from a re-analysis of the deposited data

Results flagged for a closer look

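*Epha5* ratios differed in direction between typical cells and inhibitory neuron-like cells taken as a pooled class, but not between typical cells and the *Npy* and *Sst* cluster of that class. In inhibitory neuron-like cells its log2 ratio was 0.86 for homozygous over wild-type and 0.48 for heterozygous over wild-type, whereas in typical neuronal cells the ratios were −0.40 and −0.36, with no interval holding 0. The difference between the classes was not tested. Inhibitory neuron-like cells came from a cluster led by *Npy* and *Sst* (125, 99 and 110 cells) and a cluster led by *Igfbpl1* and *Sp8* (588, 79 and 92 cells) in the wild-type, heterozygous and homozygous libraries, and within the first the ratios were −0.16 for homozygous and −0.46 for heterozygous over wild-type. In the second, *Epha5* was at 58.1, 33.2 and 77.9 CPM, from 73, 5 and 11 UMIs.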

How the results depend on the processing

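With 1 library per genotype no replicate could be left out. No paired analysis was possible because the genotypes share fewer than 2 replicate numbers. Of the members' log2 ratios under other settings, 86 of 90 for homozygous over wild-type, 89 of 90 for heterozygous over wild-type, 78 of 80 for homozygous over heterozygous and 131 of 135 for other over typical cells stayed inside their counting intervals. Mean raw UMIs per cell, which shifts all genes alike (below), moved *Epha5* to −0.82 and *Efnb3* to −0.63 for homozygous over wild-type. For homozygous over heterozygous it moved them to −0.37 and −0.42. The cause of the remaining values outside was not tested. *Nrp1* in homozygous over wild-type typical cells ran from −1.61 to −1.01. *Plxna4* in other over typical cells of the homozygous library turned from 0.59 to −0.15 with cells thinned to 1000 UMIs. Thinning also turned *Robo1* in other over typical cells of the heterozygous library from 0.46 to −0.29, *Efnb3* in those of the wild-type library from −0.06 to 0.31, and *Efnb3* in typical cells from −0.13 to 0.19 for heterozygous and from −0.21 to 0.13 for homozygous over wild-type. For heterozygous over wild-type it turned *Robo1* from −0.26 to 0.09 and *Robo2* from −0.14 to 0.02 in typical cells. Thinned counts are smaller, and no interval was taken for thinned ratios.

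Members past the fold as higher in the homozygous library went from 0 to 1 with thinning and with the empty-droplet profile subtracted at either share, and those in the heterozygous library from 0 to 1 with thinning, and with thinning this was *Epha4* in both. Members past the fold as lower went from 2 to 6 in the homozygous library with mean raw UMIs per cell, which shifts all genes by −0.42 on the log2 scale, and to 1 without the top 5% of cells by UMI count. In the heterozygous library they went from 1 to 2 with mean raw UMIs per cell, with atypical cells included and with the empty-droplet profile subtracted, and to 0 when every cell had equal weight (*Nrp1* at −0.45). For homozygous over heterozygous they went from 0 to 1 with mean raw UMIs per cell. The share of all genes past the fold was not taken under these settings, so the counts are not read as a result about the members.

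The share of all genes past the fold depended on the level required. With at least 1 UMI in each library, a mean of at least 5 CPM and a mean from 5 to under 20 CPM it was 31.9%, 15.9% and 23.2% for homozygous over wild-type, 32.4%, 16.5% and 22.6% for heterozygous over wild-type, and 53.8%, 43.4% and 59.1% for other over typical cells of the heterozygous library, where a mean of at least 100 CPM gave 13.5%. At clustering resolution 2, inhibitory neuron-like cells held *Plxna2* at 43.9 CPM and *Epha5* at 94.8 CPM, against 54.7 and 144 CPM.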
